A study of Mus musculus with 6 samples.

Results

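The pre-B-cell receptor and the proteins that carry its signal were described through 9 genes chosen by symbol, namely Igll1, Vpreb1, Vpreb2, Vpreb3, Cd79a, Cd79b, Syk, Blnk and Btk. Each of the 9 had 1 probe set that the platform annotation paired with that gene alone, and 0 probe sets paired a member with a further gene. They were 9 of 22180 named genes, and all 9 lay above the filter on dim genes that left 15526 genes to test. The cells were mouse leukaemia cells of the B lineage (B-ALL, acute lymphoblastic leukaemia) driven by BCR-ABL, a fusion oncogene with tyrosine kinase activity, and were given 312 nM dihydroartemisinin (DHA, to which artemisinin antimalarials are converted in the body) or its solvent dimethyl sulphoxide (DMSO, called vehicle here) for 4 h. There were 3 arrays with vehicle and 3 with DHA. The growth protocol names p185+ and p185T315I+ cells (p185 is the shorter BCR-ABL protein, and T315I a substitution in its kinase domain) together with Arf-/- and p53-/- backgrounds, and the sources used here do not give which of these was hybridised. The extraction protocol lists both 2 and 4 h, the treatment protocol and the titles of the DHA samples 4 h alone. Nothing in the labels says that the 3 samples of a group were separate cultures, so the p-values cover the variation among these 6 samples, and that may be technical in origin.

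A developing B cell that has rearranged its immunoglobulin heavy chain shows it on the surface with a surrogate light chain, built from the products of Igll1 (lambda 5) and Vpreb1 or Vpreb2, and with the signalling pair CD79A and CD79B. Tyrosines in the tails of that pair are phosphorylated by SRC-family kinases and recruit the kinase SYK, which phosphorylates the adaptor BLNK (SLP-65), on which the kinase BTK is brought to phospholipase C gamma 2. In the pre-B stage this signal drives a burst of division and then the exit from it. BCR-ABL-positive B-ALL arises from B-cell precursors, and BLNK is known as a tumour suppressor of mouse pre-B cells.

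The values are log2 intensities, and a probe set's brightness also depends on its probes, so levels are compared between arrays and not between genes. In bulk RNA, fewer cells that express a gene and less RNA of it per cell cannot be told apart. In the cells given vehicle, the mean log2 intensity was 13.04 for Igll1, 12.70 for Cd79a, 12.63 for Cd79b, 11.26 for Blnk, 10.19 for Syk, 10.13 for Btk, 9.03 for Vpreb3, 8.54 for Vpreb2 and 4.78 for Vpreb1. The filter stood at 4.52, and array medians over all probe sets lay between 5.25 and 5.31, so the Vpreb1 probe set was dim and the other 8 were bright. All 12 B-cell precursor markers with a probe set passed the filter, with a mean level of 10.58 to 10.61 per vehicle array and 10.50 to 10.55 per DHA array. These markers include the members Igll1, Vpreb1, Cd79a and Cd79b, so that list is not independent of the 9 genes. Of the markers of T and NK cells 6 of 11 lay under the filter, among them Cd3e, Cd3g and Cd8a, and the list's mean level was 4.53 to 4.55 with vehicle and 4.50 to 4.60 with DHA. Of the myeloid markers 6 of 12 lay under it, and that mean was 4.60 to 4.66 in both groups. In the other lists, 1 of 8 mature B and plasma cell markers, 1 of 5 erythroid and megakaryocyte markers and 1 of 10 stromal markers lay under the filter. The stromal markers above it included Vim (12.22 with vehicle) and Pecam1 (9.34), and the T and NK cell markers above it included Nkg7 (6.02). The filter alone therefore does not tell cell types apart.

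The starts of the surrogate light chain genes are shown first. Igll1 was 1 of the 2 members of 9 whose groups did not overlap, where 15.8% of all tested genes had groups apart. Vpreb1 is the neighbour of Igll1 in the annotation (0 annotated genes between them), and Vpreb2 is a close copy of Vpreb1. The windows are RefSeq sequence of build GRCm38.p6 from 250 bases before to 50 after the annotated start, and 8 of the 9 genes had at least 1. Igll1 is at chr16:16863936-16864235 (minus strand), Vpreb1 at chr16:16869206-16869505 (minus strand) and Vpreb2 at chr16:17980315-17980614 (plus strand). Capitals mark matches on either strand to the E-boxes CAGGTG and CAGCTG, the kind of site bound by the B-lineage factor E2A, and to CCCNNGGG, the core of the site of the B-lineage factor EBF1.
Igll1: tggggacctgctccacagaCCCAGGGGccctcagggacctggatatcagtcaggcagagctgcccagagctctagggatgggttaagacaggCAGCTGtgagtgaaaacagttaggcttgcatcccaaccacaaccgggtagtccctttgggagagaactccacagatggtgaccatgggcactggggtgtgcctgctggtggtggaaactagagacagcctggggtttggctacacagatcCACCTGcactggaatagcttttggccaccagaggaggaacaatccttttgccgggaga
Vpreb1: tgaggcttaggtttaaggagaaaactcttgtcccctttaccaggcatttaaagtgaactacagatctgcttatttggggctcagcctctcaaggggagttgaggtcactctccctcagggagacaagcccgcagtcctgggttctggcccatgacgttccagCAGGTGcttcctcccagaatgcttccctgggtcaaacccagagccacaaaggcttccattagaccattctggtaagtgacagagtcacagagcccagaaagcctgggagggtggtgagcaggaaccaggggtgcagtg
Vpreb2: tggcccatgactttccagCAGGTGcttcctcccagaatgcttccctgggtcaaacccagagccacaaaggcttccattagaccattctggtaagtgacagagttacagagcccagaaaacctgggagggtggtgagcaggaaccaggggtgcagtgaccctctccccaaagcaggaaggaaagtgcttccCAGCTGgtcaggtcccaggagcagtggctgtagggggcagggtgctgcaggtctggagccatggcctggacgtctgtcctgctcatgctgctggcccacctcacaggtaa

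The Vpreb1 and Vpreb2 windows shared a stretch of 156 aligned bases of which 153 were identical (98.1%). It began at base -106 from the annotated start in Vpreb1 and at the first base of the window, -250, in Vpreb2, so the annotated starts of the copies lie at different places in the shared sequence. The stretch ran to the last base of the Vpreb1 window. Window edges thus set both of its ends, and how far the similarity extends was not measured. Among the first windows of the 8 genes with a window, aligned in 1 orientation, no other pair shared more than 17 identical bases in its best local alignment. The second Syk window was not aligned. CAGGTG was present in the windows of 6 of the 8 genes (Igll1, Vpreb1, Vpreb2, Cd79a, Blnk and Syk), against 20.2% of 32851 promoter windows of the same length in the table. The Vpreb1 and Vpreb2 matches lie at the same place in the shared stretch, so they are not separate occurrences. Counts here are per gene, and Syk has 2 windows, while the percentages are per window. CAGCTG was present in 3 of the 8 (Igll1, Vpreb2 and Syk) against 16.3%, and CCCNNGGG, in Igll1 alone, against 13.7%. The longer EBF1 consensus, which extends that core by 1 base on each side, was in 0 of the 8 against 0.904%. These matches describe letters in a window and were not tested as sites. The sequence of the array probes was not used here, so how well they separate Vpreb1 from Vpreb2 was not tested.

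None of the 9 genes was called changed after DHA. Calls were made in limma, fitted over all 15526 genes, where the p adjusted by the Benjamini-Hochberg method did not exceed 0.05, and 14 genes (0.0902%) were called. By limma, 1 of the 9 (Igll1) had an unadjusted p under 0.05, against 12.0% of all tested genes. None did without vehicle replicate 1, DHA replicate 1 or DHA replicate 3, after median centring or after quantile normalization. The 95% intervals of the 9 fold changes, unadjusted for the number of genes, together ran from 0.826-fold to 1.23-fold. The fold change is the DHA level over the vehicle level, and array summaries tend to understate changes of dim genes. Log2 fold changes ran from -0.13 for Syk to 0.059 for Btk, 4 above 0 and 5 below. Their median was -0.00070, beside 0.0027 for all tested genes, whose median absolute log2 fold change was 0.067.

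**Figure D1:**
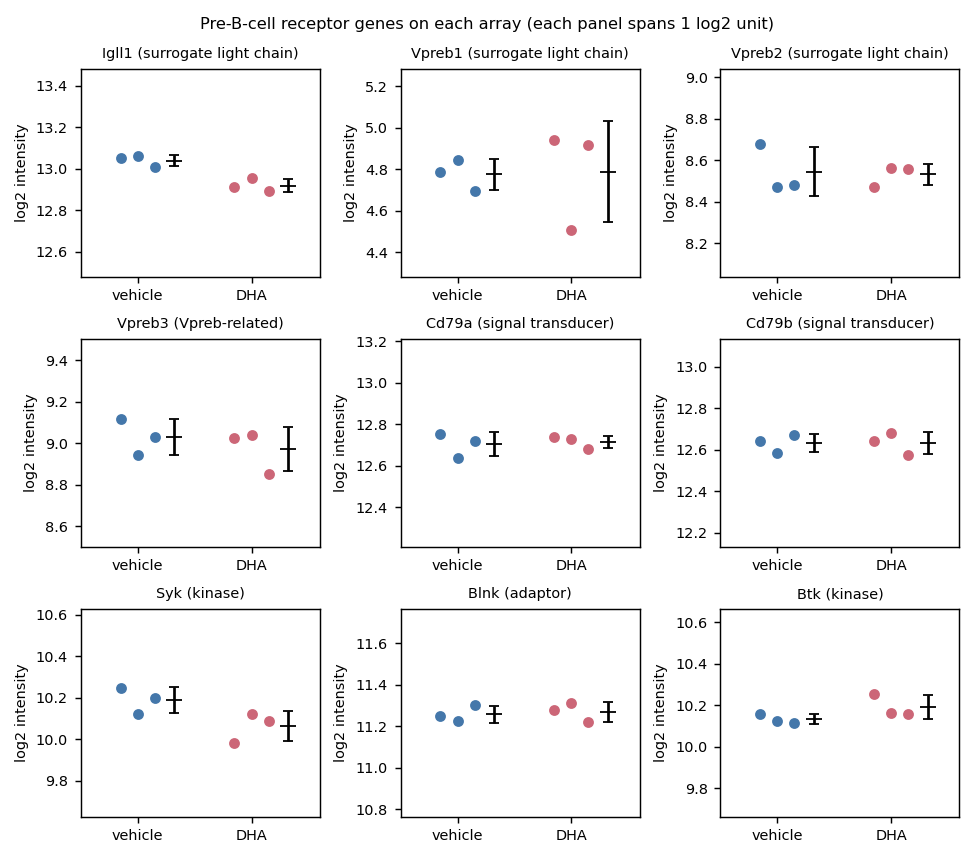
Log2 intensity (vertical axes, each spanning 1 log2 unit) of the 9 genes on the 3 vehicle arrays (blue) and the 3 DHA arrays (red), with replicates 1 to 3 from left to right. Black marks show the group mean and SD. The groups lie apart for Igll1 and, narrowly, for Syk, and overlap for the other 7.

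Among the surrogate light chain genes, Igll1 encodes lambda 5, the part that resembles a constant region. Its log2 intensity was 13.05, 13.06 and 13.01 on the vehicle arrays and 12.91, 12.95 and 12.89 on the DHA arrays. All 3 DHA arrays lay below all 3 vehicle arrays, and the gap between the groups was small. The means were 13.04 ± 0.028 and 12.92 ± 0.032 (SD, n = 3 per group). The difference was -0.12 on the log2 scale (SE 0.045, 95% interval -0.23 to -0.014), or 0.92-fold, with an adjusted p of 0.363 in limma. The exact two-sided permutation p was 0.1, the smallest that 3 against 3 arrays allow. Over the alternatives to the processing the adjusted p of Igll1 in limma ran from 0.198 to 0.607.

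Vpreb1 and Vpreb2 encode near-identical proteins, the part that resembles a variable region. The Vpreb2 probe set measured 8.68, 8.47 and 8.48 with vehicle and 8.47, 8.56 and 8.56 with DHA. The highest value was on vehicle replicate 1, and the groups overlapped. The log2 fold change of Vpreb2 was -0.013 (SE 0.070, 95% interval -0.18 to 0.15; limma adjusted p = 0.960).

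The dim Vpreb1 probe set measured 4.79, 4.84 and 4.70 with vehicle and 4.94, 4.51 and 4.92 with DHA. DHA replicate 2 was the lowest of the 6 and the other DHA arrays were the highest. The difference was 0.010 on the log2 scale with the widest interval of the 9 (SE 0.12, -0.28 to 0.30; limma adjusted p = 0.982). Without DHA replicate 2 it was 0.15.

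Vpreb3 is related in sequence to the Vpreb genes, and its product binds immunoglobulin chains inside the cell rather than forming the surrogate light chain. It measured 9.12, 8.94 and 9.03 with vehicle and 9.03, 9.04 and 8.85 with DHA. The lowest value was on DHA replicate 3 and the groups overlapped. Vpreb3 differed by -0.057 on the log2 scale (SE 0.073, 95% interval -0.23 to 0.12; limma adjusted p = 0.792).

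Cd79a and Cd79b encode the signalling pair that pre-B-cell and B-cell receptors share. Cd79a measured 12.75, 12.64 and 12.72 with vehicle and 12.74, 12.73 and 12.68 with DHA. Cd79b measured 12.64, 12.58 and 12.67 with vehicle and 12.64, 12.68 and 12.57 with DHA. For Cd79b the 2 groups covered nearly the same range, and for Cd79a the DHA arrays lay within the wider range of the vehicle arrays. On the log2 scale Cd79a differed by 0.0115 (SE 0.050, 95% interval -0.11 to 0.13; limma adjusted p = 0.95). Cd79b differed by -0.00070 (SE 0.051, 95% interval -0.12 to 0.12; limma adjusted p = 0.998), the smallest difference of the 9.

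Syk, the kinase recruited by the phosphorylated tails, measured 10.25, 10.12 and 10.20 with vehicle and 9.98, 10.12 and 10.09 with DHA. DHA replicate 1 was the lowest, and the groups were apart only by the gap between vehicle replicate 2 (10.121) and DHA replicate 2 (10.119). The log2 fold change of Syk was -0.13 (SE 0.059, 95% interval -0.27 to 0.014; limma adjusted p = 0.464), with an exact two-sided permutation p of 0.1. Over the alternatives it lay between -0.16 and -0.085, and the adjusted p in limma between 0.375 and 0.714. Igll1 and Syk were the 2 of 9 whose groups did not overlap, both lower with DHA, where 15.8% of all tested genes had groups apart and 8.19% were lower with DHA in that way.

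The adaptor Blnk measured 11.25, 11.22 and 11.30 with vehicle and 11.28, 11.31 and 11.22 with DHA. These ranges were nearly the same, and Blnk differed by 0.012 on the log2 scale (SE 0.049, 95% interval -0.11 to 0.13; limma adjusted p = 0.948). Btk, the kinase brought in by BLNK, measured 10.16, 10.13 and 10.12 with vehicle and 10.26, 10.16 and 10.16 with DHA. DHA replicate 1 was the highest, and DHA replicate 3 (10.156) lay just under vehicle replicate 1 (10.158). The log2 fold change of Btk was 0.059 (SE 0.048, 95% interval -0.057 to 0.17; limma adjusted p = 0.674). It was 0.026 without DHA replicate 1 and 0.076 without DHA replicate 3.

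**Figure D2:**
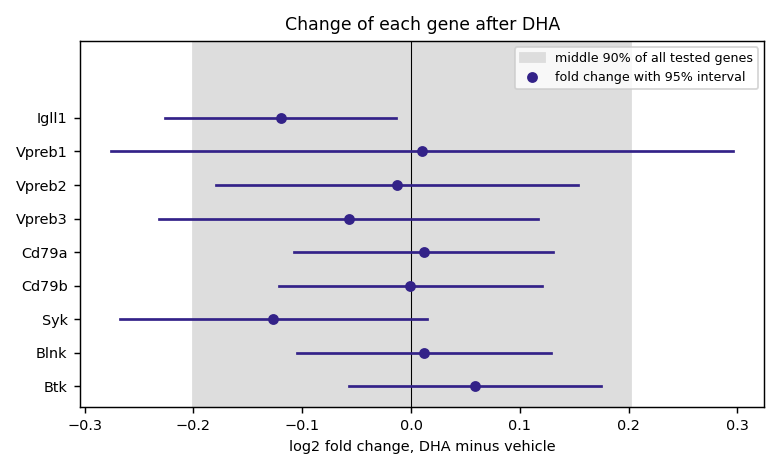
Log2 fold change of each gene, DHA minus vehicle (horizontal axis), as a point with its 95% limma interval, n = 3 arrays per group. The grey band holds the middle of the distribution of all 15526 tested genes, from their 5th (-0.20) to their 95th percentile (0.20), and all 9 points lie within it. The interval of Igll1 leaves out 0 and the other 8 include it.

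The members also differed in how closely replicates lay together. The pooled SD within groups was 0.030 for Igll1, 0.043 for Btk, 0.044 for Blnk, 0.046 for Cd79a and 0.049 for Cd79b, each under the lower quartile of all tested genes (0.059). It was 0.069 for Syk, and 0.091 for Vpreb2 and 0.097 for Vpreb3, near the median of all tested genes (0.088). It was 0.18 for Vpreb1, above the upper quartile (0.13).

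**Figure D3:**
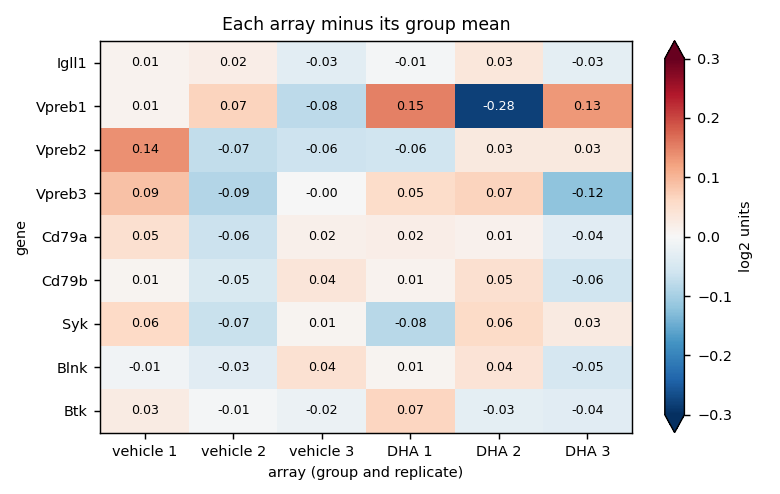
Log2 intensity of each gene on each array minus the mean of that gene in the array's own group (colour and printed value, in log2 units). Vehicle replicate 1 lies above its group mean for 8 of the 9 genes, vehicle replicate 2 for 2 and DHA replicate 3 for 3. The darkest cell is Vpreb1 on DHA replicate 2.

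On some arrays several members lay on the same side of their group mean, and the share of all tested genes that did so was not computed. Vehicle replicate 1 was above its group mean for 8 of 9 genes and vehicle replicate 2 for 2, DHA replicate 2 for 7 and DHA replicate 3 for 3. After the group means were removed, values over the 6 arrays correlated at 0.96 for Cd79b with Blnk, 0.90 for Vpreb3 with Cd79a, 0.83 for Vpreb3 with Cd79b, 0.80 for Vpreb2 with Syk and 0.77 for Cd79a with Cd79b (Pearson's r). The lowest were -0.73 for Vpreb1 with Cd79b and with Blnk, and -0.60 for Vpreb1 with Syk. Within the surrogate light chain, the correlation was -0.47 for Vpreb1 with Igll1, -0.19 for Vpreb1 with Vpreb2 and 0.22 for Vpreb2 with Igll1. Some pairs lay near 0, such as Blnk with Btk (0.04) and Igll1 with Cd79a (-0.01). Others lay in between, such as Vpreb3 with Blnk (0.67) and Btk with Syk (-0.53). With so few arrays high values are common, and the points share arrays, RNA and normalization, so the correlations are a description.

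The genes whose pattern was most like that of a member were found by Pearson's r over the 6 arrays, among all tested genes. For Igll1 they were Lipa (0.997), Nop10 (0.993) and Nudcd3 (0.991), for Cd79a Pigp (0.999), Ly9 (0.990) and Trappc5 (0.985), and for Vpreb1 Ikzf5 (0.982), Zc2hc1a (0.982) and Chtf8 (0.979). With so few arrays such values are common, and 75 genes passed 0.95 for Igll1, 45 for Cd79a and 30 for Vpreb1.

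The rest of the pathway was described through 3 lists. None of their 57 tested genes was called changed by limma, and the counts of unadjusted p under 0.05 are given for each list. Of 21 tested kinases, adaptors and effectors near the receptor, 7 were higher and 14 lower with DHA, the median log2 fold change was -0.045, and 1 had an unadjusted p under 0.05 in limma. The smallest p was that of Pik3ap1, the BCAP adaptor that links the receptor to PI3-kinase. It measured 10.81, 10.84 and 10.91 with vehicle and 10.68, 10.72 and 10.74 with DHA, all 3 DHA arrays lying lower (log2 fold change -0.14, SE 0.048; limma adjusted p = 0.336). Cd81, a tetraspanin of the B-cell surface, differed by -0.13 (SE 0.062; limma adjusted p = 0.472) and by -0.083 without DHA replicate 3. Nfatc1, a transcription factor activated by the calcium signal downstream of phospholipase C gamma, differed the other way, by 0.115 (SE 0.056; limma adjusted p = 0.475), with overlapping groups. Lyn was not analysed here.

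Of 13 tested inhibitors of receptor signalling, 9 were higher and 4 lower, with a median of 0.058 and 1 at an unadjusted p under 0.05 in limma. Ptpn22, a phosphatase that acts on SRC-family kinases in lymphocytes, measured 5.27, 5.38 and 5.30 with vehicle and 5.86, 5.39 and 5.71 with DHA. DHA replicate 2 lay just above the highest vehicle array (log2 fold change 0.33, SE 0.12; limma adjusted p = 0.337). The docking proteins Dok1 and Dok3 differed by 0.115 (SE 0.064) and 0.19 (SE 0.145), with overlapping groups and limma adjusted p of 0.527 and 0.655. Dok1 differed by 0.067 without DHA replicate 1, and Dok3 by 0.037 without vehicle replicate 2 and 0.31 without vehicle replicate 3. Ptpn6, which encodes the phosphatase SHP-1, differed by -0.065 (-0.11 to -0.027 on leaving out 1 array) and Inpp5d, which encodes SHIP-1, by 0.021. Both were chosen as textbook inhibitors after their values were seen. Cd72 was not analysed here, and Lair1 and Pirb lay under the filter.

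**Figure D4:**
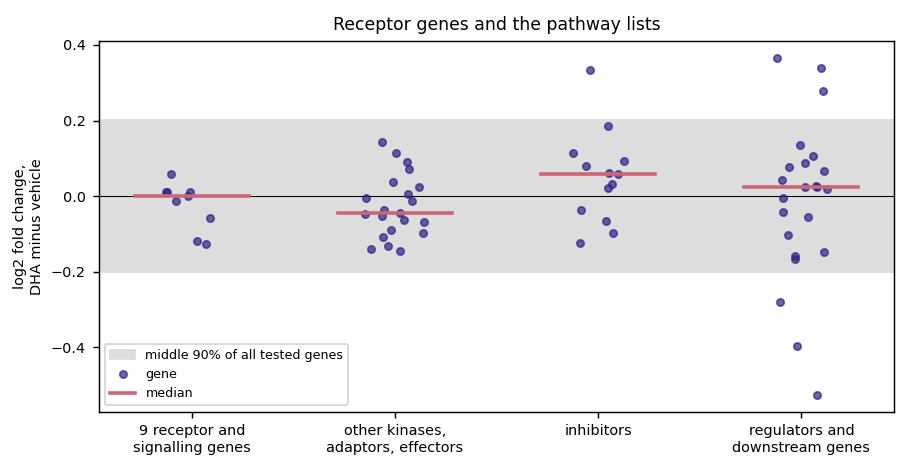
Log2 fold change, DHA minus vehicle (vertical axis), of the 9 receptor and signalling genes, of 21 other kinases, adaptors and effectors, of 13 inhibitors and of 23 regulators and downstream genes. Each point is a gene, red lines are list medians (-0.00070, -0.045, 0.058 and 0.024), and the grey band runs from the 5th to the 95th percentile of all tested genes. The last list holds the points farthest from 0, from -0.53 to 0.37.

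Of 23 tested regulators and downstream genes of the receptor, 13 were higher and 10 lower, with a median of 0.024. By limma, 3 were higher and 4 lower at an unadjusted p under 0.05, which is 7 of 23 against 12.0% of all tested genes, and 0 passed after adjustment. Irf4, a transcription factor that a pre-B-cell receptor signal induces and that slows the pre-B-cell cycle, measured 10.24, 10.15 and 10.25 with vehicle and 10.65, 10.45 and 10.56 with DHA. Every DHA array was above every vehicle array (log2 fold change 0.34, SE 0.065, 95% interval 0.18 to 0.49; limma adjusted p = 0.126, and 0.0811 to 0.388 over the alternatives). The transcription factor Sox4 measured 8.52, 8.20 and 8.22 with vehicle and 7.84, 7.94 and 7.98 with DHA (log2 fold change -0.40, SE 0.094, limma adjusted p = 0.194). The Sox4 difference was -0.29 without vehicle replicate 1 and -0.32 with the mean of the gene's probe sets. Rag2, a subunit of the recombinase that joins immunoglobulin gene segments, measured 7.59, 7.64 and 7.92 with vehicle and 7.21, 7.45 and 6.91 with DHA. Its groups did not overlap, and it differed by -0.53 (SE 0.15; limma adjusted p = 0.253, and 0.112 to 0.571 over the alternatives).

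The others at an unadjusted p under 0.05 were picked with their values in view, outside the rule for naming genes. Bcl6, a repressor that protects pre-B cells, differed by 0.37 (SE 0.12; limma adjusted p = 0.314) from a dim level of 5.72, and Irf8, a partner of IRF4 in pre-B cells, by 0.28 (SE 0.0995; limma adjusted p = 0.343). The D-type cyclins Ccnd2 and Ccnd3 differed by -0.15 (SE 0.045) and -0.17 (SE 0.066), with limma adjusted p of 0.279 and 0.392. Groups were apart for Bcl6 and Ccnd2 and overlapped for Irf8 and Ccnd3. Il2ra, whose product CD25 marks small pre-B cells, was also chosen after its values were seen, and differed by -0.10 (SE 0.11, limma adjusted p = 0.748), by -0.036 without vehicle replicate 3 and by -0.20 without DHA replicate 2. Rag1 was not analysed here.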

How the data were processed

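The deposited values were log2 intensities of Affymetrix probe sets, 1 column per sample. The authors used Partek version 6.6 and RMA, which joins the probes of a set into 1 value, per the submitters' processing notes, with settings that the sources used here do not give. The 41345 probe sets had 0 missing values. Groups came from the agent label, and replicate numbers followed accession order and only name samples. Probe sets with 1 gene symbol in the platform annotation (23521) were named, and 23328 of them were matched by Entrez identifier to RefSeq GRCm38.p6. The 1814 with several symbols and the 16010 unnamed here were left out. The brightest probe set by the mean over 6 arrays stood for a gene, and genes under the 30th percentile were left out. DHA was compared with vehicle in limma version 3.58.1 (R version 4.3.3, two-sided, default moderation, 4 residual and 2.77 prior degrees of freedom), beside exact permutation tests. The procedure was tested on simulated data. No scanner files were used here, and the number of arrays limits the precision.

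The members, lists and tests were chosen with earlier results of these data known. The rule named all 9 members, up to 3 genes of each pathway list with the smallest p, any called gene of those lists or of other cell types' markers, and the 3 genes most like Igll1, Vpreb1 and Cd79a. The 17 alternatives were leaving out each array, other filters, scalings, probe set rules, moderation and thresholds, and a title code that vehicle replicate 3 and DHA replicate 2 share.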

Additional observations from a re-analysis of the deposited data

How the results depend on the processing

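The count of 9 members had 0 called under each of the 17 alternatives, and their median log2 fold change stayed between -0.029 (without vehicle replicate 3) and 0.0064 (without vehicle replicate 1). Igll1, Syk and Btk kept their sign in each alternative that was run, as did 19 of 21 other pathway and marker genes, and none of these was called. The exceptions were Inpp5d (-0.0081 to 0.043 on leaving out 1 array) and Bst1 (-0.060 to 0.025, with 0.019 without vehicle replicate 1). Where the groups of a gene did not overlap, leaving out arrays could not reverse its sign. Other filters, thresholds and moderation leave a fold change as it is, and several of the 21 were named for a small p. A kept sign therefore says little about how firm these differences are. For the members that reversed, leaving out 1 array gave -0.066 to 0.15 for Vpreb1 (-0.029 without vehicle replicate 3, -0.054 without DHA replicate 3), -0.049 to 0.055 for Vpreb2 (0.017 without DHA replicate 1), -0.10 to 0.0031 for Vpreb3, -0.021 to 0.036 for Cd79a, -0.025 to 0.029 for Cd79b (0.0039 and 0.018 without vehicle replicates 1 and 3) and -0.0094 to 0.037 for Blnk (-0.0055 without vehicle replicate 2). No paired analysis was possible because the groups shared only 1 title code and the labels give no replicate numbers. The count of 14 genes called over all genes became 23 without DHA replicate 2 and 0 on leaving out any other single array. The count was 0 with 1564 unadjusted p under 0.05 in limma without both arrays of the shared title code, and 41 with a term for it. Moderation with trend and robust settings gave 62 and no moderation 1, testing each probe set gave 2, and centring arrays on the median or quantile normalization gave 52 or 63. Without a filter the count was 5, with a filter at the 50th percentile, which left out Vpreb1, 62, and at an adjusted p at or under 0.1 it was 80. Some of these settings use fewer arrays or test more or fewer genes, and beyond that the cause was not tested.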

Other observations

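Among the other B-cell precursor markers, chosen here after their values were seen, Cd24a, a surface glycoprotein of B-cell precursors, had a vehicle mean of 12.72 ± 0.021 and a DHA mean of 12.56 ± 0.070 (SD, n = 3 each; limma adjusted p = 0.320). The difference of -0.16 was -0.030 with the mean of the gene's probe sets. Dntt, the polymerase that adds bases at immunoglobulin joints, differed by -0.23 on the log2 scale (SE 0.11, limma adjusted p = 0.461), with overlapping groups. Leaving out 1 array gave -0.34 to -0.16 for Dntt. Ebf1, which drives transcription of several of the receptor genes, differed by 0.13 (SE 0.057, limma adjusted p = 0.416). Cd93 and Bst1, surface proteins of early B cells, differed by -0.030 and -0.016. The mean level of the 12 markers, which include Igll1, Vpreb1, Cd79a and Cd79b, was lower on every DHA array than on every vehicle array. Rag2 (-0.53) had the largest difference among the 12 and so weighed most in that mean, and a mean without Rag2 was not computed. Of the 12, 7 were lower and 5 higher. Groups lay apart for 3 of the lower and 1 of the higher markers, where 15.8% of all tested genes had groups apart. Cd79a, Cd79b and Il7r differed by 0.0115, -0.00070 and 0.018. Dntt had the next largest difference after Rag2. The mean level of 5 erythroid and megakaryocyte markers, of which 4 were tested, was 5.24 to 5.28 per vehicle array and 5.29 to 5.36 per DHA array. The 4 tested were higher with DHA, from 0.012 for Epor to 0.15 for Gp9, and 0 were called by limma or had an unadjusted p under 0.05.

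Many deposited values were exactly equal between arrays. Of the 15526 tested genes, 5466 (35.2%) had the same value on at least 2 of the 6 arrays, 252 had the same value on all 3 vehicle arrays, 277 on all 3 DHA arrays and 23 on all 6. Among the 9 members this occurred in 1, Cd79b, whose value was the same on vehicle replicate 1 and DHA replicate 1. Plcg2, the phospholipase on which the BLNK and BTK signal converges, had the same value on all 3 vehicle arrays (SD 0), as did Bcl10, an adaptor of NF-kB signalling. Of the 14 genes called changed, 0 had equal values. How such ties arose was not tested.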
